A study of Mus musculus with 2 samples.

Results

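The 9 genes described here encode immune checkpoint and costimulation proteins, 4 of them ligands and 5 of them receptors. They are Cd274, Pdcd1lg2, Cd80, Cd86, Pdcd1, Ctla4, Lag3, Havcr2 and Tigit, chosen by gene symbol from the 32285 genes of each count matrix, and all 9 had a row. They were followed in single lung cells of female BALB/c mice (BALB/cJ in the sample labels) that carried a 14-day 4T1 tumor, a mouse mammary carcinoma line that seeds the lung. The mice were 12 weeks old when each received 100000 4T1 cells, and both groups therefore bore tumors. The saline mice were injected intravenously with saline and the NP mice with PLG nanoparticles, particles of a biodegradable polymer that carried no drug, every 3 days from 1 day after the tumor cells. There was 1 library per condition, made from lungs pooled over 4 mice by the labels (the methods give another number). No replicate check was therefore possible. The 95% intervals given after values reflect counting error alone.

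Cd274 encodes PD-L1 and Pdcd1lg2 encodes PD-L2, the ligands of PD-1, the receptor encoded by Pdcd1 that restrains activated T cells. Cd80 and Cd86 encode the B7 proteins, which activate T cells through CD28 and are bound more tightly by CTLA-4, a receptor that regulatory T cells carry at high levels. LAG-3 binds MHC class II, TIM-3 (Havcr2) binds galectin-9 among other ligands, and TIGIT binds poliovirus receptor family proteins. Interferon gamma is a well-known inducer of PD-L1 in many cell types.

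The kept cells, those with 500 to 5000 detected genes and under 7.5% mitochondrial counts, numbered 8662 in saline and 8333 in NP. Their median depth was 6474.5 and 6008 unique molecular identifiers (UMIs), each of which counts 1 captured transcript. Class names such as neutrophils stand for clusters that are like that cell type by marker genes, and the 9 genes themselves were left out of the genes that formed the clusters. Neutrophils made up 5584 saline and 3077 NP cells, classical monocytes 618 and 762, non-classical monocytes 91 and 353, alveolar macrophages 147 and 202, T cells 424 and 347, and endothelial cells 298 and 1120. A further monocyte class carried both the classical and the non-classical marker sets (58 and 335 cells), and 553 and 930 cells stayed unnamed. Hemoglobin genes were among the leading genes of that class and of 3 classical monocyte clusters within the phagocytes, of the T cells of no single named subset, and of B cells. The T cells of no single named subset scored 2.98 on CD4 and 3.12 on CD8 marker genes (mean log2 level over the median cluster). Ccl5 and Gzma were among their leading genes. The CD8 T cell class had Lef1, Dapl1 and Ccr7 among its leading genes. Values for CD4 and CD8 T cells therefore leave out any such cells in the class of no single subset. The libraries shared 21 cell barcodes, and the median mitochondrial share was 1.31% in saline and 2.66% in NP. Levels are pooled CPM, a gene's UMIs in a class per 1000000 UMIs of that class and library.

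Cd274 and Pdcd1lg2 lie next to each other on the plus strand of chromosome 19. On GRCm38 (the build called mm10 in the labels), Cd274 spans chr19:29367455-29388095 and Pdcd1lg2 spans chr19:29410919-29471161, with 22823 bases between them. The 250 bases before each RefSeq start (GRCm38.p6) are shown because Cd274 had the largest ratio of the members measured in neutrophils, while its neighbour, the gene of the other PD-1 ligand, had only 3 and 7 UMIs there. Capitals mark matches to 3 short motifs searched on both strands: the interferon-gamma motif GAS (TTCNNNGAA), the interferon motif ISRE (GAAA, any 2 bases, GAAA) and the NF-kB motif (GGG, any 5 bases, CC).
Cd274, chr19:29367188-29367437, plus strand: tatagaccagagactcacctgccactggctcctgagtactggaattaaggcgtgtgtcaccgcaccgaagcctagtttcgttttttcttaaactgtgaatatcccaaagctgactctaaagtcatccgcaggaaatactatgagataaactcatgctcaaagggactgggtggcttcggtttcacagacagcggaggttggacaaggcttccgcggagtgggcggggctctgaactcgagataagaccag
Pdcd1lg2, chr19:29410669-29410918, plus strand: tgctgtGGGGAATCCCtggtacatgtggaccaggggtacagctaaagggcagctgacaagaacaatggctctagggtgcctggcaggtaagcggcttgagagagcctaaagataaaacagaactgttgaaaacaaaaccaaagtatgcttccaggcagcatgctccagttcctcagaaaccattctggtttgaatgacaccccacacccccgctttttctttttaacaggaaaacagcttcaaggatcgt
The Cd274 window held none of the 3 letter patterns, which says nothing of interferon sites elsewhere or of other spelling. The Pdcd1lg2 window held 1 NF-kB match, GGGGAATCCC, which began 244 bases before the start. Among all 32851 promoters in the table, 7.02% held GAS, 2.98% held ISRE and 45.8% held NF-kB in a window of this length. The RefSeq table matched 7 of the 9 genes, and among these the Cd80 window held 2 NF-kB matches and no other window held a match.

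**Figure D1:**
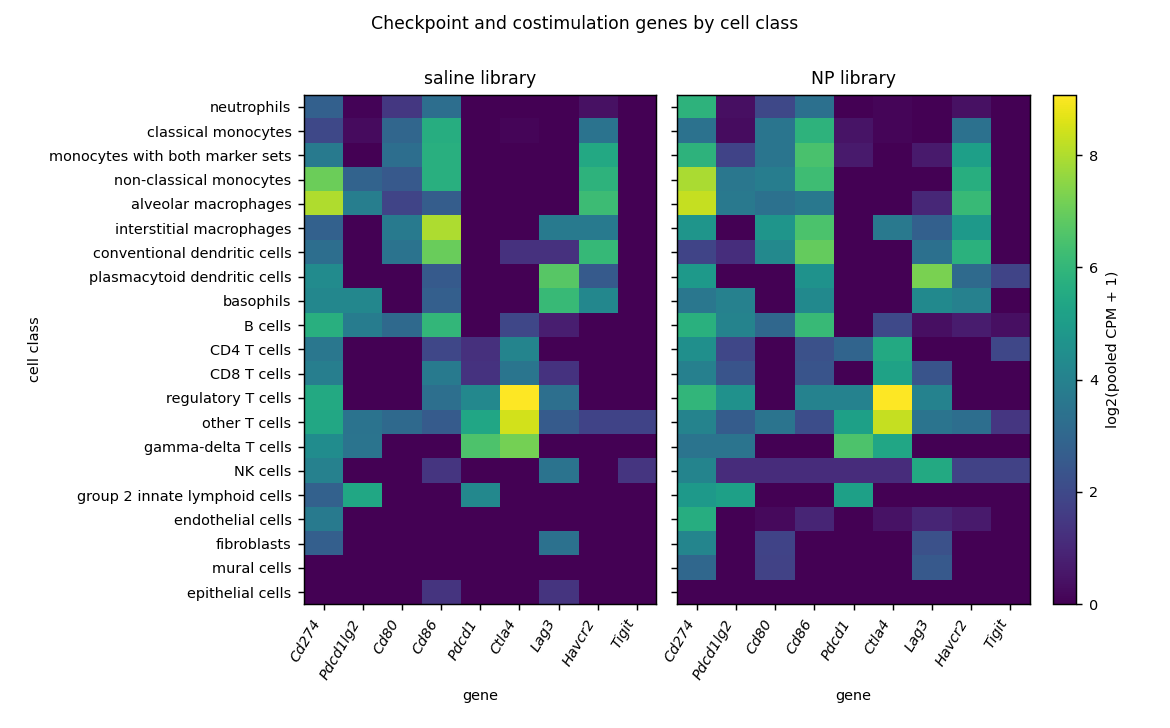
Level of each gene (columns) in each cell class (rows) in saline (left) and NP (right), for classes with at least 10 cells per library. Shading is log2(pooled CPM + 1) and is read within a column, since UMIs were not scaled to transcript length. Ctla4 is brightest in regulatory T cells in both libraries, and the neutrophil square of Cd274 is brighter in the NP library.

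Cd274 was found in macrophages, monocytes, neutrophils, B cells and endothelium, and of the pooled classes neutrophils, short-lived cells that kill microbes, had the largest ratio, which was smaller once clusters were weighted alike. Its level there was 5.84 CPM in saline (5.18 to 6.57) and 57.3 CPM in NP (54.3 to 60.4). These levels rest on 280 and 1376 UMIs. The NP level was 9.81-fold the saline level (8.62 to 11.2), a log2 ratio of 3.29 (3.11 to 3.48). Of the 4 members with at least 20 UMIs in neutrophils, only Cd274 was at least 2-fold higher in NP. Over all genes with that many UMIs, 4.1% were at least 2-fold higher in neutrophils.

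A Cd274 UMI was found in 219 of 5584 saline neutrophils (3.92%) and in 693 of 3077 NP neutrophils (22.5%). After each cell was thinned to 1000 UMIs, the shares were 0.843% (0.620% to 1.12%) and 7.87% (6.94% to 8.88%), with 8 saline and 1 NP neutrophil left out as shallower. Median depths were 6042.5 and 5232 UMIs, so the NP neutrophils were the shallower group. Most positive saline neutrophils held 1 UMI (190 cells), while 14 held 2, 12 held 3 to 5 and 3 held 6 or more. In the NP library 378 held 1 UMI, 144 held 2, 143 held 3 to 5 and 28 held 6 or more. No epithelial cell held a Cd274 UMI in either library, where by a limit of 3 counts 0 of 50 and 0 of 48 cells allow shares up to 6% and 6.25%. Cd274 in barcodes under 50 UMIs, which hold free RNA, was at 16.8 CPM in saline and 71.9 CPM in NP. Free RNA was estimated at 0.609% of saline and 1.04% of NP neutrophil UMIs. Each value is the lowest of the estimates from Scgb1a1, Sftpc, Hbb-bs and Hba-a1.

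**Figure D2:**
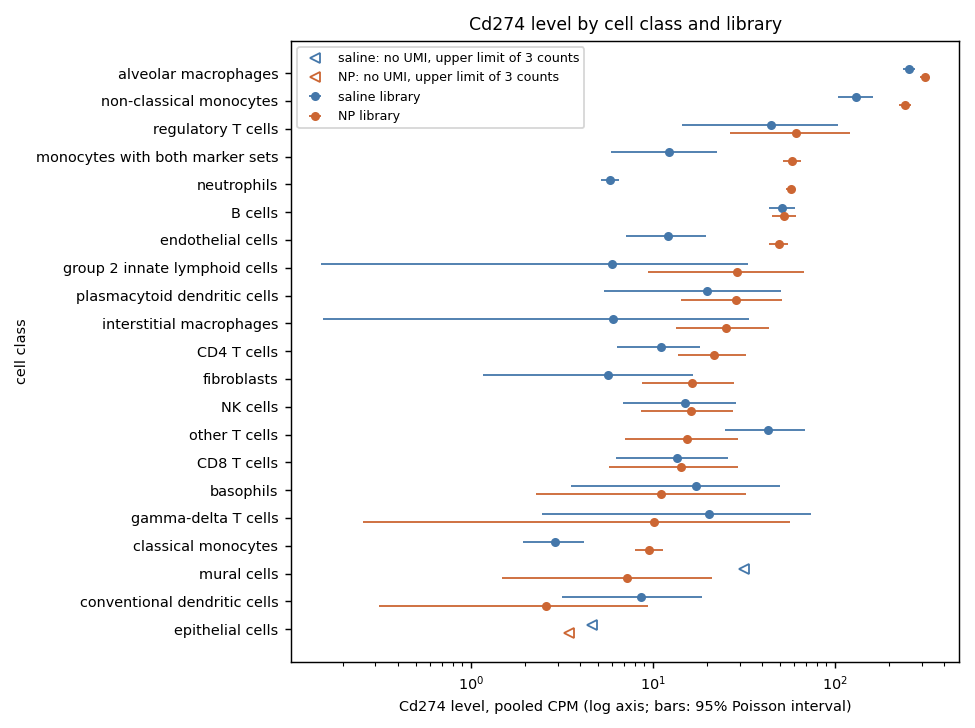
Cd274 level in pooled CPM (log axis) by cell class, with saline in blue and NP in orange, bars for 95% Poisson intervals and open triangles for the limit set by 3 counts where no UMI was found. Alveolar macrophages are highest in both libraries (257 and 312 CPM), and neutrophils move from 5.84 to 57.3 CPM.

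The neutrophil class held 7 clusters, and saline and NP cells were spread over them differently. Clusters led by stefin genes such as Stfa2l1 and Stfa2 or by Saa3 and Il1b held most saline neutrophils (1858, 1180 and 1099 cells). Clusters whose cells were mostly from NP held 280 saline and 729 NP cells in one case, and 46 and 459 in the other, which was led by Acod1, Cxcl10, Rsad2 and Isg15. In that last cluster Cd274 was at 109 CPM in saline (65.6 to 170) and 348 CPM in NP (322 to 375), and it held 668 of the 1376 NP neutrophil UMIs. At the other end, the Ngp, Camp and Ltf cluster, with granule genes of immature neutrophils, was at 0.651 CPM (0.281 to 1.28) and 3.11 CPM (1.99 to 4.63). The NP interval lay above the saline interval in all 7 clusters. With both libraries weighted to the saline mix of clusters the log2 ratio was 1.98, and with the NP mix it was 1.76, against 3.29 for the pooled class. It was 2.61 when each cell was placed by its own marker score.

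Neutrophils were also split by 7 interferon-response genes (Gbp2, Gbp5, Igtp, Ifi47, Irf1, Cxcl9 and Cxcl10), counted in cells thinned to 1000 UMIs. Cells with none of these UMIs were 81.3% of saline and 49.6% of NP neutrophils, and their Cd274 level was 3.76 CPM (3.19 to 4.40) in saline and 14.4 CPM (12.5 to 16.4) in NP. Cells with 1 such UMI were at 11.6 CPM (8.99 to 14.7) and 53.2 CPM (46.6 to 60.4). Cells with 2 or more were at 48.8 CPM (37.0 to 63.1) and 216 CPM (202 to 230). In neutrophils the Cd274 level was thus higher in NP within each stratum, and higher in cells with more interferon-response UMIs within each library. The same stratum need not mean an equal response in both libraries. The top stratum has no upper limit, and thinning can leave a cell that expresses these genes without such a UMI. From the lowest to the highest stratum, Cd80 was at 1.70, 4.71 and 5.64 CPM in NP neutrophils and at 1.76, 2.08 and 0.841 CPM in saline, the last from 1 UMI. Cd86 was at 7.97, 11.9 and 10.8 CPM in NP and at 8.45, 10.2 and 10.9 CPM in saline.

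**Figure D3:**
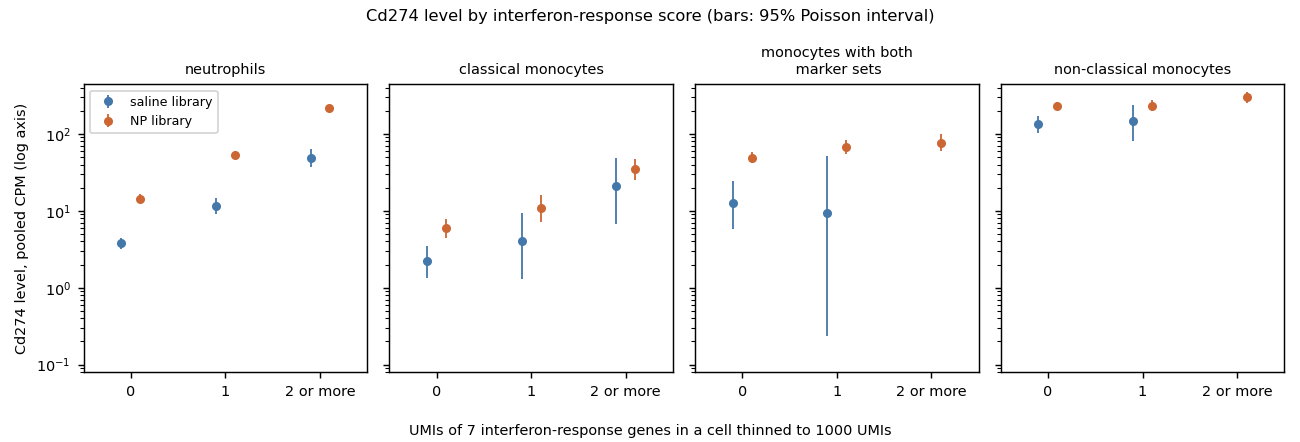
Cd274 level in pooled CPM (log axis) in neutrophils and 3 monocyte classes, by the UMIs of 7 interferon-response genes in a cell thinned to 1000 UMIs. Blue is saline, orange is NP, bars are 95% Poisson intervals, and points with no cell or no UMI are not drawn. In neutrophils both libraries step upward from left to right and NP (14.4, 53.2 and 216 CPM) lies above saline (3.76, 11.6 and 48.8 CPM).

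Among monocytes Cd274 was highest in the non-classical class in both libraries. Non-classical monocytes, the patrolling cells of the vessel wall, were at 131 CPM in saline (104 to 163, 81 UMIs) and 243 CPM in NP (226 to 261, 754 UMIs), a log2 ratio of 0.89 (0.56 to 1.24). Classical monocytes, the recruited inflammatory cells, were at 2.91 CPM (1.95 to 4.17) and 9.58 CPM (7.97 to 11.4), a log2 ratio of 1.72 (1.13 to 2.36). The class with both marker sets lay between them at 12.3 CPM (5.90 to 22.6, 10 UMIs) and 58.1 CPM (51.7 to 65.0, 300 UMIs), a log2 ratio of 2.24 (1.34 to 3.31). The ratio in classical monocytes was 1.52 with the saline mix of clusters and 2.56 with the NP mix, where a cluster led by Rsad2, Isg15 and Ifit1 held 34 saline and 288 NP cells. Its saline cells held 0 Cd274 UMIs, which allows up to 6.87 CPM, and entered at 0 CPM without the floor of 3 counts. The value of 2.56 therefore depends on that unfloored 0. Of 4 members with at least 20 UMIs in classical monocytes, Cd274 alone was at least 2-fold higher in NP, against 1.93% of all such genes. In the class with both marker sets it was again 1 of 4, against 3.33%. In non-classical monocytes 1 of 5 members (Cd80) passed 2-fold, against 3.74%, and its interval included no difference.

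Alveolar macrophages, which clear surfactant and inhaled particles, held the highest Cd274 level of any class with at least 20 cells per library. The level was 257 CPM in saline (238 to 277) and 312 CPM in NP (295 to 330), a log2 ratio of 0.28 (0.14 to 0.42). Nearly all of them held a UMI before thinning (93.9% and 97.0%), and 19.7% and 30.2% did at 1000 UMIs. They supplied 47.6% of all Cd274 UMIs in saline and 25.8% in NP, while neutrophils supplied 19.8% and 28.8%. Non-classical monocytes supplied 15.8% in NP.

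In B cells Cd274 was at 51.6 CPM in saline (43.7 to 60.7) and 52.9 CPM in NP (45.4 to 61.3), and the log2 ratio of 0.04 had an interval of -0.29 to 0.36. In endothelial cells it was at 12.2 CPM (17 UMIs) and 49.4 CPM (266 UMIs), a log2 ratio of 2.02 (1.31 to 2.82). Cd274 was the only member with 20 UMIs in endothelium, where 2.48% of all genes passed 2-fold. Mature dendritic cells, a migrating form that presents antigen, were at 244 CPM in NP (202 to 291, 29 cells), but with 2 such cells in saline no ratio was taken. T cells of every subset combined were at 18.2 and 20.4 CPM, a log2 ratio of 0.17 (-0.44 to 0.77). T cells of no single named subset were at 42.8 CPM from 17 UMIs and 15.5 CPM from 9 UMIs, a log2 ratio of -1.47 (-2.81 to -0.22). By marker score the ratio was 0.78, but for another set of cells, all those that scored highest on the general T cell markers. In saline the order among classes of at least 20 cells began with alveolar macrophages, non-classical monocytes and B cells, and the 2 mature dendritic cells held 4 UMIs. In NP the first were alveolar macrophages, then mature dendritic cells and non-classical monocytes with overlapping intervals. Monocytes with both marker sets, neutrophils, B cells and endothelial cells followed in NP, and each neighbouring pair among them had overlapping intervals. Regulatory T cells, at 61.6 CPM from 8 UMIs (26.6 to 121), were above these by level, but their interval held the level of each of them.

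**Figure D4:**
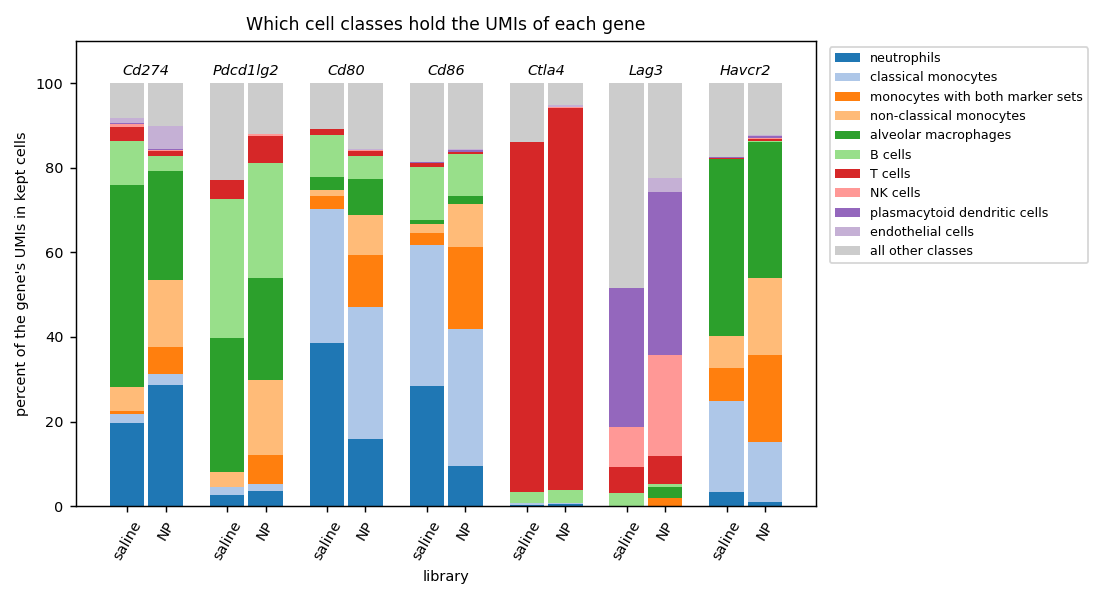
Percent of each gene's UMIs in kept cells held by each cell class, as stacked bars for the saline and NP libraries, with T cells of every subset combined and minor classes in grey. Alveolar macrophages give 47.6% of Cd274 UMIs in saline and 25.8% in NP, and T cells give 82.6% and 90.3% of Ctla4 UMIs.

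Pdcd1lg2, the second PD-1 ligand, was sparse, with 113 UMIs in saline and 191 in NP over all kept cells. B cells held 32.7% and 27.2% of them and alveolar macrophages 31.9% and 24.1%. B cells were at 12.9 CPM (9.09 to 17.8) and 15.6 CPM (11.6 to 20.4), a log2 ratio of 0.27 (-0.37 to 0.92). Alveolar macrophages were at 13.7 and 11.6 CPM, a log2 ratio of -0.24 (-0.90 to 0.43). Group 2 innate lymphoid cells, which make type 2 cytokines, were at 41.9 CPM from 7 UMIs and 34.8 CPM from 6 UMIs. Neutrophils, taken as the background class, held 3 and 7 UMIs, or 0.0626 and 0.291 CPM. Of the 12 UMIs in the 2 saline mature dendritic cells, 11 were in a single cell, while the 29 NP cells of this class held 1 UMI.

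Cd80 and Cd86 were held mostly by myeloid cells and B cells. Neutrophils held 38.5% of Cd80 UMIs in saline and 16.0% in NP, and classical monocytes 31.7% and 31.1%. Of Cd86 UMIs neutrophils held 28.3% and 9.55%. In conventional dendritic cells, which present antigen to T cells, Cd86 was at 126 CPM in saline (101 to 156) and 121 CPM in NP (97.7 to 148). Its log2 ratio in conventional dendritic cells was -0.06 (-0.50 to 0.38). Interstitial macrophages were at 249 CPM (179 to 338) and 89.6 CPM (65.6 to 120), a log2 ratio of -1.48 (-2.12 to -0.83). That class had only 21 saline and 50 NP cells, 1 saline cell held 11 of the 41 UMIs, and the log2 ratio was 0.53 with classes from each cell's marker score.

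Classical monocytes held the largest number of Cd86 UMIs in both libraries, 33.4% in saline and 32.4% in NP. Their level was 49.4 CPM (45.1 to 54.0) and 57.9 CPM (53.8 to 62.2), a log2 ratio of 0.23 (0.06 to 0.40). At 1000 UMIs per cell the shares were 5.34% and 5.38%, and unthinned they were 47.9% and 54.3%. Monocytes with both marker sets were at 51.7 CPM (37.2 to 69.8) and 87.1 CPM (79.3 to 95.5), a log2 ratio of 0.75 (0.30 to 1.25). Neutrophils were at 8.72 CPM (7.91 to 9.60) and 9.20 CPM (8.03 to 10.5), and the log2 ratio of 0.08 ran from -0.16 to 0.32. B cells were at 63.9 and 68.2 CPM, a log2 ratio of 0.09 (-0.19 to 0.38). Endothelial cells, the background class for both B7 genes, held 0 and 5 Cd86 UMIs and 0 and 1 Cd80 UMI.

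Cd80 levels were lower and less certain. Classical monocytes were at 7.02 CPM in saline (5.47 to 8.86) and 10.7 CPM in NP (8.96 to 12.6), a log2 ratio of 0.60 (0.18 to 1.04). Neutrophils were at 1.77 CPM (1.42 to 2.19) and 2.96 CPM (2.31 to 3.73), a log2 ratio of 0.74 (0.26 to 1.21), and at 1000 UMIs per cell their shares were 0.323% and 0.293%. With the saline and the NP mix of clusters the Cd80 ratio was 0.33 and 0.81 in neutrophils. In classical monocytes it was 0.74 and 1.02 with these mixes. Saline cells of some clusters in both classes held no Cd80 UMI and entered at 0 CPM without a floor. In alveolar macrophages Cd80 was at 2.67 CPM from 7 UMIs and 9.36 CPM from 37 UMIs, a log2 ratio of 1.81 (0.63 to 3.22), and Cd86 at 5.33 and 11.4 CPM, a log2 ratio of 1.09 (0.20 to 2.07). Cd80 and Cd86 were thus 2 of 5 members past 2-fold there, against 1.18% of all genes. At 1000 UMIs per cell, Cd80 was found in 0 of 147 saline and 1 of 202 NP alveolar macrophages. Cd86 was found in 1 of 147 and 1 of 202, so the thinned shares were too sparse to compare. B cells were at 7.68 and 7.18 CPM, a log2 ratio of -0.10 (-0.99 to 0.81).

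**Figure D5:**
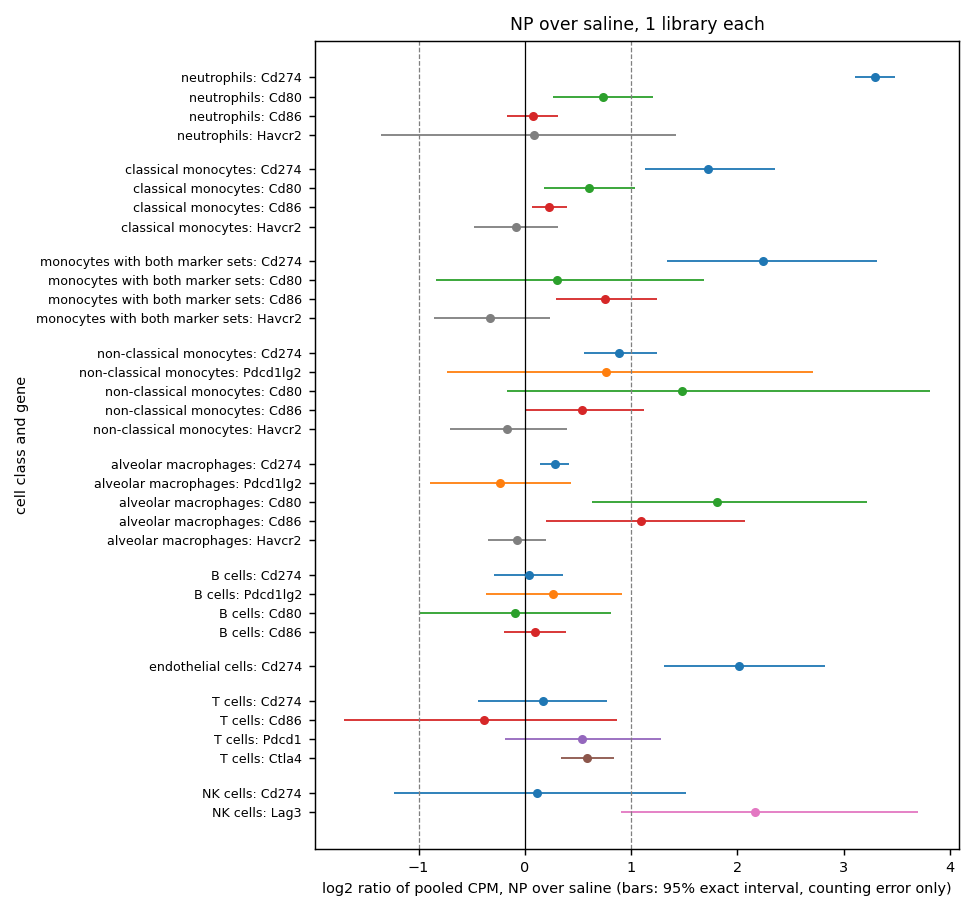
Log2 ratio of pooled CPM, NP over saline, for members with at least 20 UMIs in 9 cell classes, with bars for the 95% exact interval of counting error. The solid line is no difference and dashed lines are 2-fold. Cd274 in neutrophils (3.29) lies furthest right, while Havcr2 lies close to 0 in each class shown.

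Among the receptors, Ctla4 was largely a T cell gene, with T cells holding 82.6% of its UMIs in saline and 90.3% in NP. Over all T cells the level was 89.7 CPM (78.8 to 102) and 135 CPM (120 to 150), a log2 ratio of 0.59 (0.34 to 0.83). The subsets made up different parts of this class in the 2 libraries: T cells of no single subset gave 14.7% of its UMIs in saline and 24.7% in NP, regulatory T cells 4.17% and 5.53%, and CD4 T cells 53.1% and 44.8%. With the saline mix of subsets in both libraries the log2 ratio of Ctla4 was 0.18, and with the NP mix it was 0.045. The share of T cells with a UMI was 15.8% and 25.9%, and 4.95% (3.09% to 7.47%) and 9.51% (6.64% to 13.1%) at 1000 UMIs, both over the unequal subset mix. Neutrophils, which should lack the gene, held 1 and 2 Ctla4 UMIs. Of 4 members measured in T cells none was 2-fold higher in NP, against 2.38% of all genes.

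The unnamed cells held 13.7% of Ctla4 UMIs in saline and 3.42% in NP. Regulatory T cells were at 533 CPM (407 to 687) and 539 CPM (420 to 680), a log2 ratio of 0.01 (-0.50 to 0.54). T cells of no single subset were at 347 CPM (292 to 410) and 306 CPM (263 to 355), a log2 ratio of -0.18 (-0.51 to 0.15). Of the 15 saline and 17 NP cells of that class with a UMI of Foxp3, the regulatory T cell factor, 14 and 16 also held Ctla4. CD4 T cells were at 16.1 CPM (10.2 to 24.1) and 44.6 CPM (32.8 to 59.3), a log2 ratio of 1.47 (0.73 to 2.26). CD8 T cells were at 10.6 CPM from 7 UMIs and 36.8 CPM from 18 UMIs, a log2 ratio of 1.79 (0.46 to 3.29). Few cells carry these values: 11 saline and 21 NP CD4 T cells and 5 and 9 CD8 T cells held a Ctla4 UMI, and 1 saline CD4 T cell held 7 of the 23. The CD4 ratio was -0.02 when each cell was classed by its own marker score.

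Pdcd1 had 37 and 55 UMIs in all kept cells, 30 and 38 of them in T cells. The T cell level was 11.1 CPM in saline and 16.2 CPM in NP, a log2 ratio of 0.54 (-0.19 to 1.28), and 0.17 with the saline or 0.039 with the NP mix of subsets. Gamma-delta T cells, of which there were 16 and 15, held 9 UMIs in each library, or 91.9 and 91.2 CPM. T cells of no single subset were at 40.2 and 34.4 CPM, a log2 ratio of -0.23 (-1.25 to 0.82), but 1 saline cell held 9 of the 16 UMIs. The CD8 T cell class, which leaves out any CD8 cells among the T cells of no single subset, held 1 and 0 Pdcd1 UMIs. A difference was not detectable there at this depth. Neutrophils held none.

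Lag3 was found chiefly outside T cells. Plasmacytoid dendritic cells, the interferon-producing cells, were at 105 CPM in saline (64.8 to 160, 21 UMIs) and 151 CPM in NP (115 to 195, 58 UMIs), and held 32.8% and 38.4% of its UMIs. With 18 saline cells this class was below the 20 required for a ratio. NK cells were at 10.0 CPM (3.68 to 21.8) and 45.0 CPM (31.5 to 62.3), from 6 and 36 UMIs, a log2 ratio of 2.17 (0.90 to 3.70). A Lag3 UMI was found in 6 of 121 and 29 of 132 NK cells, and at 1000 UMIs in none of the 121, which by a limit of 3 counts allows up to 2.48%, and in 9 of the 132 (6.82%, 3.16% to 12.5%). Median depth was 4390 and 5528.5 UMIs. Lag3 was 1 of 2 members with 20 UMIs in NK cells, where 2.36% of all genes were 2-fold higher. Basophils ran the other way, at 68.9 CPM from 12 UMIs and 18.6 CPM from 5, a log2 ratio of -1.89 (-3.75 to -0.28). T cells held 4 and 10 Lag3 UMIs, and neutrophils none.

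Havcr2, though best known from exhausted T cells, was a macrophage, monocyte and dendritic cell gene in these lungs. Alveolar macrophages were at 72.7 CPM (62.8 to 83.8) and 69.1 CPM (61.1 to 77.8), a log2 ratio of -0.07 (-0.35 to 0.20). Non-classical monocytes were at 56.7 and 50.3 CPM, a log2 ratio of -0.17 (-0.71 to 0.40), and classical monocytes at 9.92 and 9.35 CPM, a log2 ratio of -0.09 (-0.48 to 0.31). Conventional dendritic cells were at 67.4 CPM (49.5 to 89.7) and 54.7 CPM (39.4 to 73.9), a log2 ratio of -0.30 (-0.94 to 0.33). These intervals leave room for modest differences in either direction. Over all kept cells the level was 5.87 and 11.8 CPM, while none of these classes was 2-fold apart. T cells held 1 and 5 UMIs, and B cells, the background class, held 0 and 2. Tigit had only 2 and 8 UMIs in all kept cells, 1 and 4 of them in T cells, and no level was compared.

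Cells with more than 1 ligand were a minority over all kept cells, and non-classical monocytes in NP were among several classes with many of them. Over all kept cells 6988 of 8662 saline and 5307 of 8333 NP cells held no ligand, and 1470 and 2323 held 1. In NP, 15 of 29 mature dendritic cells held 2 ligands and 4 held 3. Of 202 NP alveolar macrophages 66 held 2, 14 held 3 and 3 held 4, and of 147 in saline 45 held 2 and 2 held 3. Of 335 NP monocytes with both marker sets 105 held 2, 17 held 3 and 2 held 4. NP median depths of these classes were 16024, 19611 and 15105 UMIs. Of 353 NP non-classical monocytes, 27 held no UMI of the 4 ligands, 169 held 1 ligand, 134 held 2, 21 held 3 and 2 held all 4. Of the 91 in saline, 35 held none, 43 held 1, 11 held 2 and 2 held 3. Their median depths of 8030 and 6332 UMIs differed in the same direction, and the part of depth was not tested. In these cells 123 of the 150 NP cells with Cd86 also held Cd274 (82%), and 11 of 25 did in saline (44%). These shares were close to those over the whole class, 82.4% and 46.2%. Neutrophils seldom held both, in 37 of 693 NP and 10 of 219 saline cells with Cd274. Cd86 was sparse in neutrophils as a whole, in 191 of 3077 NP cells (6.21%) and 375 of 5584 saline cells (6.72%). The overlap is read beside these shares.

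The genes around this pathway were read from 5 lists of 65 genes, of which 64 had a row. Igtp, Gbp2, Ifi47 and Irf1, in the list of PD-L1 regulators and interferon-response genes, are reported by the paper as highly upregulated in NP neutrophils. The paper also ranks the Hallmark interferon gamma response first among pathways raised by NP in neutrophils and in monocytes. The counts for that list in neutrophils and classical monocytes were therefore partly known beforehand and are no independent results. Interferon gamma itself was reported by the paper as secreted less by cultured lung immune cells (CD45+) of NP mice. The list of PD-L1 regulators and interferon-response genes had 12 measured members in neutrophils, 8 of them at least 2-fold higher and none 2-fold lower in NP (4.1% and 3.24% of all genes), with a median log2 ratio of 2.56 against -0.13 over all genes tested. Cxcl9 and Cxcl10, chemokines that draw T cells, had the largest ratios, from 2 to 478 UMIs for Cxcl9 and a log2 ratio of 5.77 (5.41 to 6.15) for Cxcl10. In classical monocytes 8 of 13 were 2-fold higher and none lower, against 1.93% and 1.79% of all genes (median 1.48 against -0.05), with Cxcl9 at 3.04 (2.34 to 3.83) and Cxcl10 at 2.28 (1.91 to 2.67). In T cells none of 11 was 2-fold higher or lower, against 2.38% and 1.82% of all genes (median 0.34 against 0.01), and the largest ratios were 0.65 for Gbp2 (0.27 to 1.03) and 0.62 for Gbp5 (0.03 to 1.22).

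Other B7-family and inhibitory ligands were divided in neutrophils, with 2 of 13 measured genes 2-fold higher and 2 lower, against 4.1% and 3.24% of all genes. The 2 lower ones, named here after their values were seen, were Nectin2 at a log2 ratio of -1.16 (-1.41 to -0.91) and Pvr at -1.28 (-2.70 to -0.09), both of which encode ligands of TIGIT. In classical monocytes 1 of 11 was higher and none lower, against 1.93% and 1.79% of all genes there. The shares of each class also apply to the counts that follow. The nonclassical MHC gene H2-Q7 had a log2 ratio of 2.63 (2.32 to 2.95) in neutrophils and 1.55 (1.23 to 1.87) in classical monocytes. Cd200, a ligand of an inhibitory myeloid receptor, was at 1.33 (0.49 to 2.19) in neutrophils, and Lgals9, the TIM-3 ligand galectin-9, at 0.48 (0.32 to 0.65) in classical monocytes. Of the costimulatory ligands 2 of 3 were 2-fold higher in neutrophils, the adhesion ligand Icam1 among them at 1.72 (1.50 to 1.94), while Icosl was at 0.15 (-0.10 to 0.41). The other was Cd40, from 11 to 22 UMIs, where the neutrophil totals were 47925866 UMIs in saline and 24016751 in NP. In classical monocytes none of 3 was, with Cd40 at 0.84 (0.59 to 1.09) and Icosl at -0.63 (-1.06 to -0.21). The costimulatory receptors held none past 2-fold among 4 measured in neutrophils and 4 in classical monocytes, where Cd2 was at -0.95 (-1.18 to -0.71), Cd27 at 0.21 (-0.49 to 0.93), and in neutrophils Tnfrsf4 at -0.46 (-1.39 to 0.39) and Tnfrsf18 at 0.29 (-0.27 to 0.84). The inhibitory receptors held none among 8 in either class, where Cd244a was at -0.28 (-0.35 to -0.20) in neutrophils and -0.70 (-0.84 to -0.56) in classical monocytes, and Entpd1 at 0.21 (0.14 to 0.28) and -0.42 (-0.71 to -0.14).

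For T cells the following counts are set against 2.38% of all genes 2-fold higher, and they are over the unequal subset mix given for Ctla4. Icos, a costimulatory receptor of activated and regulatory T cells, was the 1 of 10 measured costimulatory receptors past 2-fold, at a log2 ratio of 1.24 (0.97 to 1.51). With either subset mix its ratio was 0.80. No costimulatory receptor was 2-fold higher in CD4 T cells (9 measured), CD8 T cells (6) or T cells of no single subset (9). Over all genes, 1.43%, 2.5% and 4.45% were 2-fold higher in these classes, so counts of 0 in lists this short say little. In regulatory T cells 1 of 6 measured was 2-fold higher and 1 lower, against 70 and 68 of 1702 genes there. Over all T cells Slamf1 was at 0.67 (0.27 to 1.08). Of 9 measured inhibitory receptors 2 were 2-fold higher, Klrg1 of effector lymphocytes at 2.03 (1.16 to 3.00; 1.29 with the saline and 1.32 with the NP mix) and Entpd1, from 6 to 16 UMIs. Cd200r1 was at 0.86 (0.09 to 1.66). Of 10 inhibitory ligands 1 was, with Lgals3 at 1.15 (0.93 to 1.38; 0.66 and 0.73 with the saline and NP mix) and Cd200 at 0.58 (-0.07 to 1.25). Of 3 costimulatory ligands 1 was, Slamf7 from 11 to 21 UMIs, while Tnfsf8 was at -0.46 (-0.76 to -0.16) and Icam1 at 0.02 (-0.39 to 0.44). The T cell totals behind these raw counts were 2697647 UMIs in saline and 2352147 in NP.

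Genes most like each member were ranked by the Pearson correlation of log2(CPM + 1) over 39 points, each a class in a library, among 11828 genes. The points share libraries and depths, so the values are descriptions. The genes nearest to Cd274 were Abcg1 (0.73), Bmt2 (0.72), B2m (0.67), Plgrkt (0.67) and Msn (0.67), and Plgrkt, on the minus strand, lies head to head with Cd274, with 64 bases between the 2 genes. Ctla4 was nearest to the T cell genes Izumo1r (0.96), Cd5 (0.95), Cd3e (0.92), Cd6 (0.92) and Tnfsf8 (0.92). All of these but Cd6 were markers used to name the classes, so their closeness to a T cell gene was partly built in. Cd86 was nearest to Pmaip1 (0.84), Ms4a6c (0.84), Ptpn6 (0.84), Ctss (0.82) and Rel (0.82), and Cd80 to Ticam2 (0.82), Gm48065 (0.81), Irf5 (0.80), Ptpro (0.80) and Clta (0.79). Havcr2 was nearest to Clec4b1 (0.86), Naip6 (0.86), Bcl2a1a (0.84), Dpep2 (0.84) and Capza2 (0.84). Lag3 (Cd7, 0.71, then Myb, Eef2k, Smim8 and Dnajb1, 0.65 to 0.60) and Pdcd1lg2 (Ppp1cc, 0.65, then Chaf1b, Galnt7, I730030J21Rik and A530088E08Rik, 0.64 to 0.62) had no gene as close.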

How the data were processed

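Single lung cells were profiled on the 10x platform in 1 saline and 1 NP library. The deposited files hold raw UMI counts per gene and barcode, made by the authors with bcl2fastq and Cell Ranger on mm10. The labels name Cell Ranger 6.0, and the file header names another version. Library totals were 91168129 and 90081747 UMIs. Barcodes were kept if they had 500 to 5000 genes and less than 7.5% mitochondrial UMIs, then scaled to 10000 UMIs and log-transformed. They were clustered with scikit-learn 1.9.0, igraph 0.11.9 and leidenalg 0.10.2 (2000 variable genes, 30 components, 20 neighbours, resolution 1). Phagocytes and lymphocytes were clustered again, and clusters were named from marker lists.

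Counts were summed per class and library. Ratios of pooled CPM are NP over saline, with counts under 3 set to 3 and an exact conditional binomial interval. They were taken for classes with at least 20 cells per library and genes with at least 10 UMIs over both libraries. Ratios at a fixed mix of clusters or subsets used levels without this floor and have no interval. Counts of genes at least 2-fold apart are read against the share found across every gene that reached 20 UMIs in the same class. Levels have exact Poisson and shares exact Clopper-Pearson intervals, and the limit for a share of 0 is 3 counts. With 1 library per condition no p-value was computed. Shares were taken on cells thinned to 1000 UMIs.

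Doublets were kept in the results given. Scrublet was run through scanpy 1.11.5. Its automatic threshold marked 0.0115% of saline cells and 3.73% of NP cells, and so had not worked in saline. A threshold of 0.25 for both libraries marked 2.17% and 3.43%. In simulated counts for neutrophils with 200 changed genes, the interval held the true ratio for 95.7% of 11076 genes. These counts were drawn independently, as the interval assumes. The simulation therefore checks the calculation only and does not cover UMIs that clump in single cells.

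The genes described and the lists around them were chosen with earlier results of these data known. List genes named are the 2 with the largest absolute ratio per list and class among those with at least 50 UMIs, and like genes are the 5 with the highest correlation, for members with at least 100 UMIs. Exceptions are stated. Positions are from GENCODE on GRCm38, and UMIs of overlapping genes on the same strand, such as Rpl18-ps1 at Ctla4, may be hard to assign.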

Additional observations from a re-analysis of the deposited data

How the results depend on the processing

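Each ratio was recomputed under up to 16 alternatives. In neutrophils the Cd274 log2 ratio of 3.29 became 2.61 when cells were classed by their own marker score, 1.98 with the saline mix of clusters and 1.76 with the NP mix. In classical monocytes the Cd274 ratio of 1.72 became 2.56 with the NP mix, and the Cd86 ratio of 0.23 became 0.43 with no upper limit on genes and 0.40 by marker score. The value of 2.56 used a saline level of 0 CPM, without the floor of 3 counts, in the Rsad2, Isg15 and Ifit1 cluster. In non-classical monocytes Cd274 went from 0.89 to 1.25 by marker score. Among ratios of at least 2-fold, direction turned by marker score for Ctla4 in CD4 T cells (-0.023), Cd86 in interstitial macrophages (0.53) and Cd274 in T cells of no single subset (0.78). For the last, the marker score class was another set of cells, those highest on the general T cell markers. Over ratios of any size, 47 of 58 kept their sign by marker score, 52 of 59 at a mitochondrial limit of 5%, 61 of 67 at resolution 2 and 60 of 66 with equal weight per cell. The cause was not tested. The ratio of Lag3 in NK cells stayed between 1.93 and 2.32 under 14 alternatives, Cd274 in alveolar macrophages between 0.26 and 0.41 and Cd274 in endothelial cells between 1.92 and 2.29. The Ctla4 ratio in T cells, 0.59, became 0.18 with the saline mix and 0.045 with the NP mix of T cell subsets. The percent of neutrophils of the saline library with a Cd274 UMI was 3.92% without thinning, 1.60% at 2000 UMIs (94 cells left out) and 0.519% for at least 2 UMIs unthinned. The percent of neutrophils of the NP library with a Cd274 UMI was 22.5%, 12.98% (27 cells left out) and 10.2% in the same order. The cluster and subset mixes, the shared Scrublet threshold and leaving out the cell with most UMIs were chosen after seeing the data. No paired analysis was possible because each condition had 1 library, and leaving out a replicate was not possible for the same reason. Depth limits Tigit, Pdcd1 and Lag3 most.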
